A study of Mus musculus with 35 samples.

Results

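The cytosolic ribosomal protein genes encode the proteins of the ribosome that translates nuclear-encoded mRNAs. They were taken from the gene count table by name (Rpl or Rps, a number and at most 1 of the letters a, x, y or l, together with Rplp0, Rplp1 and Rplp2), with at least 100 counts summed over all samples. This gave 79 of the 24480 genes in the table. Another 2 names matched, Rpl3l and Rpl32l, but had fewer counts than the minimum. Of the 79 genes, 48 encode proteins of the large subunit, the stalk proteins included, and 31 of the small subunit. They lay on 19 chromosomes of the GRCm38 mouse assembly, 14 of them on chromosome 7 and 4 on the X chromosome. Their summed exon length had a median of 725 bases, against 2165.5 for all genes in the table.

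A ribosome holds a single copy of nearly every one of these proteins, while the acidic stalk proteins are present in more copies. Most of their mRNAs begin with a terminal oligopyrimidine (TOP) tract, a C followed by a run of C and T, through which growth signals regulate their translation as a group. The early mouse embryo inherits ribosomes and stored mRNAs from the oocyte, and degrades much of this maternal mRNA as its own genome becomes active.

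RNA was sequenced from 35 samples in 4 groups, all from C57BL/6NRj mice: 10 zygotes injected with water (control zygotes), 10 zygotes injected with Kdm5b-yfp mRNA (Kdm5b zygotes), 9 water-injected 2-cell (2C) samples and 6 Kdm5b 2C samples. KDM5B is a demethylase of H3K4, and the injected mRNA carries it with a C-terminal YFP. Controls received water and no other mRNA, so what KDM5B does and what any injected mRNA does cannot be told apart. Zygotes were single cells collected 17 h after ovulation. The 2C embryos were injected in both blastomeres after division, collected 5.5 to 8 h after division, and derived from zygotes that had been frozen and thawed. Of the control 2C samples 6 were single embryos, 1 held the surviving blastomeres of 2 embryos and 2 held those of 3 embryos, and of the Kdm5b 2C samples 5 were single embryos and 1 held the surviving blastomeres of 3 embryos. All zygotes came from superovulated, mated females aged 3 to 4 weeks and were pooled across females, and the labels do not tie a sample to a female, so p-values measure the spread between embryos. Stage, library preparation day and freezing changed together and cannot be told apart.

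Fragments counted on genes numbered 12597267 to 17797581 in control zygotes, 11627845 to 16632074 in Kdm5b zygotes, 8705584 to 12877962 in control 2C samples and 11248797 to 13117592 in Kdm5b 2C samples. Of these, 29571 to 45015, 25012 to 41051, 11362 to 20049 and 10209 to 16027, respectively, fell on the 79 genes. The Kdm5b row, which holds the injected mRNA, took 2.30 to 10.4% of counts in Kdm5b zygotes and 8.27 to 15.8% in Kdm5b 2C samples, and at most 0.0189% in any control. It was removed before normalisation. Oocyte and zygote markers (Zp3, Gdf9, Bmp15, Nlrp5, Oosp1 and Zar1) were abundant in every sample, with summed levels of 1880 to 5260 CPM (counts scaled to a common library size) and Bmp15 the most abundant. Markers of the 2-cell embryo (Zscan4c, Zscan4d, Tcstv1, Tcstv3, Usp17la and Zfp352) summed to 8.97 to 38.8 CPM in zygotes and 95.6 to 406 CPM in 2C samples. Markers of other cells were low. The 3 blood markers summed to at most 2.56 CPM, with Hba-a1 the most abundant and Hbb-bs at 0 in every sample. The 8 cumulus and granulosa cell markers summed to at most 11.8 CPM, with Has2 the most abundant, and the 3 oviduct markers to at most 10.6 CPM. The cumulus sum had a median of 3.21 CPM in control zygotes, 3.43 CPM in Kdm5b zygotes, 8.04 CPM in control 2C samples and 3.84 CPM in Kdm5b 2C samples, and its part in the results was not tested.

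Replicates 2 and 3 of the control 2C samples stood apart. They had a count on 11841 and 12155 genes, against at least 13855 in the other 7, and 11 and 6 of the 79 genes were at 0, against at most 1. The main counts of genes that use control 2C samples are therefore also given without these 2.

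Rpl17, a protein near the exit of the peptide tunnel, had the highest level per length of the 79 genes in control zygotes, 646 ± 38.8 TPM (counts scaled by exon length and library, SD, n = 10). Rps24 of the small subunit followed at 475 ± 54.9 TPM and Rpl4, which lines the tunnel, at 463 ± 53.5 TPM, and these neighbours differed by less than their spread. Rpl7a came next at 377 ± 55.8 TPM. The median of the 79 genes was 59.3 TPM, with quartiles of 23.8 and 134 TPM. The highest mean level was 413-fold above the lowest, although most of the proteins are used in equal number. In control 2C samples this range was 146-fold, from Rps20 at 3.17 TPM to Rplp2 at 461 TPM. These extremes depend on the division by exon length, which is 3446 bases for Rps20. Not divided by length, Rps20 had a mean of 3.70 CPM there, above Rps27 at 0.803 CPM.

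At the lower end, Rps27 and Rpl9 had 227 and 353 counts in all 35 samples together. Their ranges were 0 to 1.03 and 0 to 0.934 CPM in control zygotes, and neither passed the filter on low counts there. Of the tested genes Rps3, a protein at the mRNA entry channel, was lowest at 3.94 ± 1.57 TPM in control zygotes (SD, n = 10). Rps20 at 4.20 ± 0.865 TPM and Rpl10l at 4.31 ± 2.74 TPM did not differ from it beyond their spread. This order is per exon length, 1879 bases for Rps3 and 3446 for Rps20. Not divided by length, Rps3 and Rps20 had means of 2.41 and 4.71 CPM, above Rps19 at 1.58 CPM. The counting left out fragments that map to several places, and 62 of the 79 genes have a named pseudogene in the RefSeq table, 307 in all. The 7 rows of ribosomal protein pseudogenes in the count table held 301 counts, against 894830 on the 79 genes. How many fragments were lost to shared sequence was not tested, so levels of single genes are uncertain.

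Together, the 79 genes held 0.232% ± 0.0268 of gene counts in control zygotes (SD, n = 10), 0.225% ± 0.0207 in Kdm5b zygotes (n = 10), 0.145% ± 0.0323 in control 2C samples (n = 9) and 0.124% ± 0.0178 in Kdm5b 2C samples (n = 6). The lowest, median and highest shares were 0.188, 0.231 and 0.274% in control zygotes and 0.203, 0.224 and 0.267% in Kdm5b zygotes. They were 0.111, 0.132 and 0.202% in control 2C samples and 0.0989, 0.125 and 0.152% in Kdm5b 2C samples. Replicates 4 and 6 of the control 2C samples lay within the range of control zygotes and the other 7 below it, and every Kdm5b 2C sample lay below every Kdm5b zygote. The large-subunit genes held 0.164% ± 0.0208 of counts in control zygotes and 0.0991% ± 0.0224 in control 2C samples, and the small-subunit genes 0.0683% ± 0.00679 and 0.0457% ± 0.0104. No spike-in is described for these libraries, so a loss of these mRNAs and a gain of others cannot be told apart. In the pooled and whole embryos, fewer cells that hold an mRNA and less of it per cell cannot be told apart either.

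**Figure D1:**
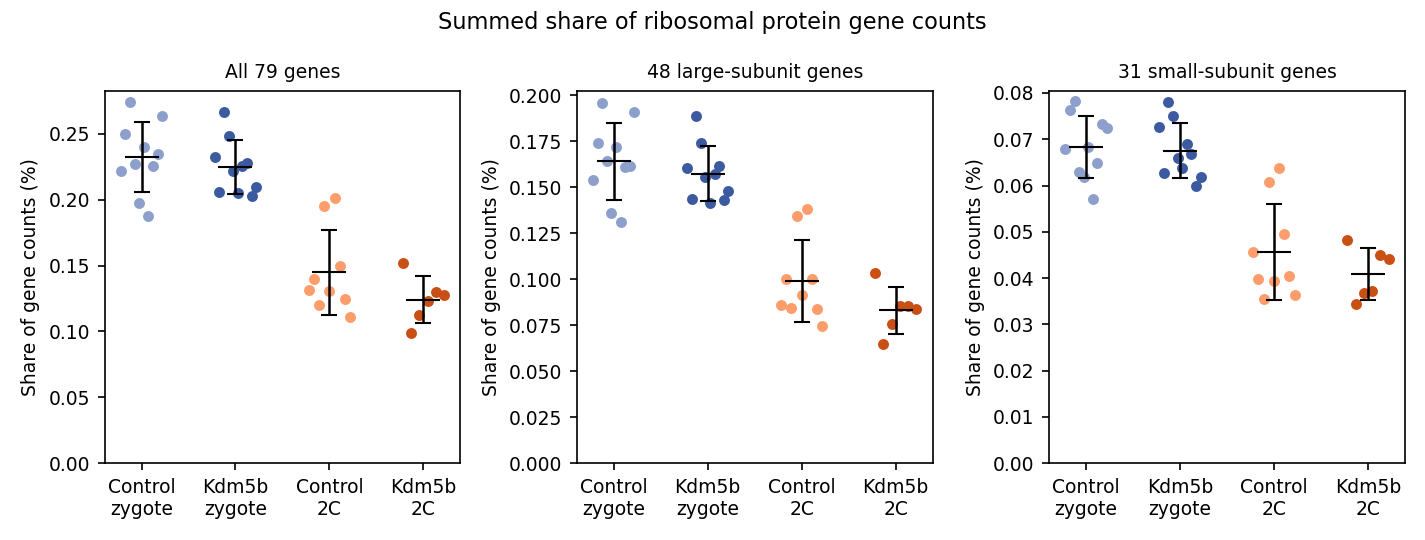
Share of gene counts (%, without the Kdm5b row) on the 79 ribosomal protein genes, the 48 of the large subunit and the 31 of the small subunit, by group. Points are samples and bars give the mean ± SD of 10, 10, 9 and 6 samples. The shares of 2C samples are mostly below those of zygotes, with means of 0.145 and 0.124% against 0.232 and 0.225%.

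From control zygotes to control 2C samples, ribosomal protein genes moved in both directions. Of the 77 that could be tested, 15 rose and 33 fell at an adjusted p under 0.05, and 29 did not pass (edgeR's quasi-likelihood test, Benjamini-Hochberg adjustment over 11968 genes). Of all genes tested, 52.2% passed, 26.8% rose and 25.4% fell. The median log2 fold change was -0.57 over the 77 genes and 0.02 over all genes. It was -0.32 (all genes 0.15) by DESeq2, which tested all 79, and -0.35 (all genes 0.02) with single intact 2C embryos only. With an absolute log2 fold change over 1 as well, 13 rose and 21 fell, against 9.2% and 13% of all genes. Without control 2C replicates 2 and 3, 18 rose and 35 fell. In the large subunit 7 of 47 genes rose and 24 fell, with a median of -0.67, and in the small subunit 8 of 30 rose and 9 fell, with a median of -0.07. The difference between the subunits was not tested.

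The stalk is the flexible arm of the large subunit that recruits elongation factors, and its 3 genes rose. Rplp1 (chromosome 9, 61913283 to 61914510) had the highest log2 fold change of the 77 genes. Its lowest, median and highest levels were 4.19, 7.17 and 9.28 CPM in control zygotes and 12.2, 31.6 and 56.2 CPM in control 2C samples. Every 2C sample was above every zygote, and the log2 fold change was 2.39 (edgeR adjusted p = 2.34e-09, standard error 0.22). Rplp2, its partner (chromosome 7, 141447650 to 141451342), had 19.0, 30.1 and 40.1 CPM in control zygotes and 48.5, 61.6 and 98.5 CPM in control 2C samples. These groups did not overlap either, with a log2 fold change of 1.21 (edgeR adjusted p = 2.50e-07, standard error 0.15). Rplp0, the base to which both attach (chromosome 5, 115559467 to 115563729), had 36.8, 62.1 and 84.9 CPM in control zygotes and 84.6, 116 and 295 CPM in control 2C samples. Its highest 2C sample was replicate 4, and its lowest, replicate 9, lay just under the highest zygote. The log2 fold change was 1.18 (edgeR adjusted p = 1.29e-05, standard error 0.19). Rplp0 took 9.09% of the counts on the 79 genes in control 2C samples, more than any other of them.

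Besides the stalk genes, 8 genes of the small and 4 of the large subunit rose. Rps27l, a paralogue of Rps27 known as a target of p53, had 10.9, 12.4 and 19.8 CPM in control zygotes and 22.6, 34.8 and 62.9 CPM in control 2C samples, with no overlap. The log2 fold change was 1.46 (edgeR adjusted p = 1.35e-07, standard error 0.18). Rps19, which is needed to mature the small subunit, varied widely among 2C samples, with 0.333, 1.52 and 3.57 CPM in control zygotes and 0.576, 4.24 and 19.6 CPM in control 2C samples. The groups overlapped, and the log2 fold change was 2.19 (edgeR adjusted p = 0.00121, standard error 0.53). Rps3 rose by 1.78 and Rps2, which also lies at the mRNA entry channel, by 1.34. In the large subunit Rpl18 rose by 1.76 (standard error 0.30) and Rpl8 by 1.24 (standard error 0.22).

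Genes that fell included Rpl5 and Rpl11, whose proteins bind 5S rRNA before it joins the large subunit and, when free of the ribosome, inhibit MDM2. Rpl11 (chromosome 4, 136049948 to 136053371) had 32.7, 43.2 and 56.6 CPM as its lowest, median and highest levels in control zygotes and 4.33, 12.0 and 17.2 CPM in control 2C samples. All 9 of the 2C samples were below all zygotes, and the log2 fold change was -1.92 (edgeR adjusted p = 2.52e-08, standard error 0.21). Rpl5 (chromosome 5, 107900528 to 107909005) had 39.6, 55.2 and 78.0 CPM in control zygotes and 7.84, 17.9 and 29.9 CPM in control 2C samples, without overlap, and a log2 fold change of -1.67 (standard error 0.20).

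Rpl21 of the large subunit (chromosome 5, 146832890 to 146837032) had the lowest log2 fold change. Its levels were 56.8, 88.2 and 135 CPM in control zygotes and 12.8, 19.6 and 27.2 CPM in control 2C samples. The groups lay far apart, with a log2 fold change of -2.21 (edgeR adjusted p = 3.19e-11, standard error 0.16). After Rpl11, Rpl37 and Rpl36 followed at -1.92 and -1.87, also without overlap. Rpl17 had 148, 164 and 180.2 CPM in control zygotes and 54.4, 58.4 and 70.7 CPM in control 2C samples. Its groups were narrow and did not overlap, with a log2 fold change of -1.41 (edgeR adjusted p = 6.62e-13, standard error 0.08). Other abundant zygotic genes fell as well, Rpl4 by 1.24, Rps24 by 1.11 and Rpl7a by 1.12 on the log2 scale. Rps6, the target of S6 kinase, had 30.5, 34.6 and 40.2 CPM in control zygotes and 13.1, 14.1 and 33.4 CPM in control 2C samples. Replicate 3 was its highest 2C sample and lay within the zygote range, and the log2 fold change was -0.97 (standard error 0.17).

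**Figure D2:**
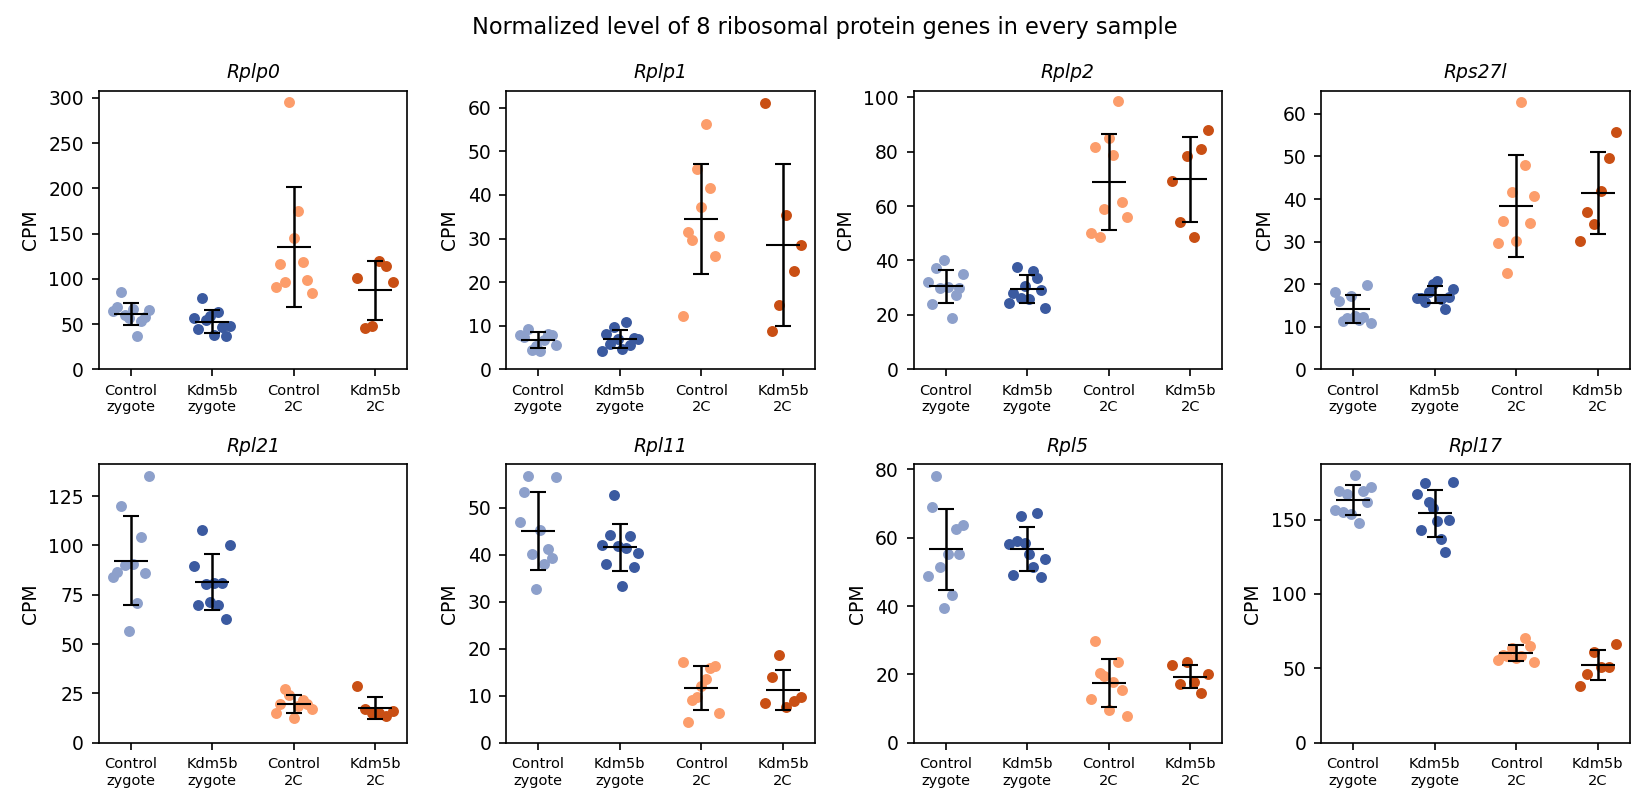
Normalised level (CPM) of 8 ribosomal protein genes in each sample, by group, with the mean ± SD. The means of Rplp0, Rplp1, Rplp2 and Rps27l are higher and those of Rpl21, Rpl11, Rpl5 and Rpl17 lower in 2C samples. Control and Kdm5b samples of a stage overlap for each gene.

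The same contrast in Kdm5b embryos rests on other samples, although library day and freezing changed with stage here too. Of 78 genes tested, 12 rose and 40 fell in edgeR, where 58.7% of the 12390 genes tested passed, 29.3% rose and 29.5% fell. The median log2 fold change was -0.54 over the 78 genes and 0.01 over all genes. Of the 77 genes tested in both contrasts, 44 were called in both, 11 higher in both and 33 lower in both. These were 91.7% of the 48 calls in controls and 84.6% of the 52 calls in Kdm5b embryos. The log2 fold change had the same sign for 70 of the 77 genes. Across these genes, which are not independent of each other, Pearson's r was 0.945 and Spearman's rho 0.941. The same agreement was not computed over all genes, so it cannot be called particular to ribosomal protein genes. Zygotes and 2C samples did not overlap for 4 higher and 16 lower genes in controls (6.64% and 10.9% of all genes tested) and for 4 higher and 29 lower genes in Kdm5b embryos (12.2% and 16.4%).

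The genes called higher in both contrasts included Rpl8, Rpl18, Rplp0, Rplp1, Rplp2, Rps2, Rps3, Rps12, Rps19 and Rps27l. Rps3 had the highest log2 fold change in Kdm5b embryos, 2.38 (edgeR adjusted p = 4.77e-06, standard error 0.36). Its lowest, median and highest levels were 0.699, 1.78 and 2.73 CPM in Kdm5b zygotes and 3.23, 6.52 and 17.9 CPM in Kdm5b 2C samples, without overlap. Rplp1 had 4.13, 6.88 and 10.9 CPM in Kdm5b zygotes and 8.76, 25.5 and 61.1 CPM in Kdm5b 2C samples, of which replicate 2 lay within the zygote range. Its log2 fold change was 2.04 (standard error 0.29). Rps19 rose by 2.00 (standard error 0.38), and by 1.36 without Kdm5b 2C replicate 1, its highest sample. Rps2 rose by 1.44, Rplp2 by 1.26, Rps27l by 1.26 and Rplp0 by 0.75. Kdm5b 2C replicates 2 and 3 had 45.8 and 47.7 CPM of Rplp0, within the Kdm5b zygote range of 36.8 to 78.6 CPM. Rpl18 rose by 0.71 with an adjusted p of 0.0416 in edgeR, and did not pass without the low-count filter or with all groups fitted together (adjusted p = 0.114 and 0.0552).

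Among the genes that fell, Rpl21 had 62.8, 80.8 and 108 CPM in Kdm5b zygotes and 13.4, 15.4 and 28.6 CPM in Kdm5b 2C samples, with a log2 fold change of -2.21 (edgeR adjusted p = 4.18e-11, standard error 0.16). Rpl19 fell by 2.11, Rpl11 by 1.88 and Rps7 by 1.79 on the log2 scale. None of these 4 genes overlapped between Kdm5b zygotes and Kdm5b 2C samples.

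Rpl10l, Rpl15, Rps23 and Rps27a rose in controls and did not pass in Kdm5b embryos. Rps27a, which encodes ubiquitin fused to a small-subunit protein, had 2.44, 4.20 and 5.12 CPM in control zygotes and 3.59, 8.14 and 43.7 CPM in control 2C samples. Its highest 2C sample was replicate 2, far above the rest, and the log2 fold change of 1.70 (standard error 0.36) became 1.17 without it. In Kdm5b embryos the value was 0.43 (standard error 0.28), and the difference between the contrasts had an adjusted p of 0.39 in edgeR. Rps21 rose and Rpl31, Rpl35a, Rpl36a, Rpl39, Rps4l, Rps15 and Rps18 fell in Kdm5b embryos and did not pass in controls.

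Rpl3, a protein near the catalytic centre, and Rpl41, the shortest ribosomal protein, passed in neither contrast, with log2 fold changes of 0.28 (standard error 0.28) and 0.76 (standard error 0.43) in controls. Rpl10, which joins the large subunit late, fell by 0.63 in controls and 0.65 in Kdm5b embryos, and X-linked Rps4x by 1.13 and 1.10. Rpl22 fell by 0.59 and 1.16. Rpl23, which like Rpl5 and Rpl11 can bind MDM2, fell by 0.76 (standard error 0.27) and 1.59, and in controls did not pass with single intact 2C embryos only (log2 fold change -0.51, adjusted p = 0.161 in edgeR). In controls its 2C samples, at 4.73 to 34.8 CPM, enclosed the zygote range of 16.1 to 31.4 CPM.

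**Figure D3:**
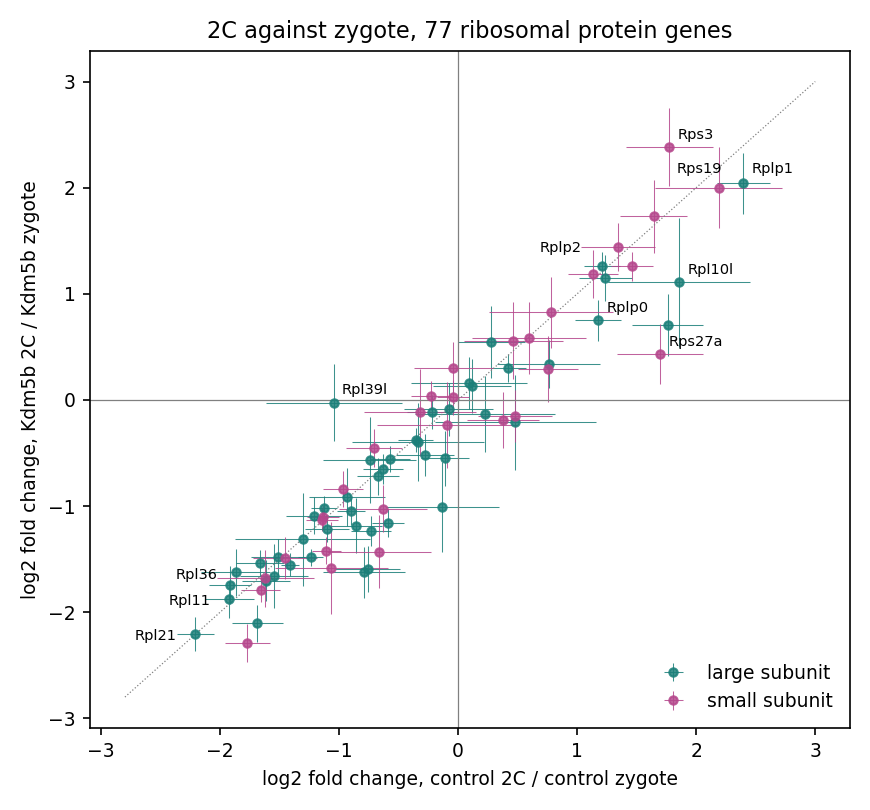
log2 fold change from zygote to 2C of 77 ribosomal protein genes in control embryos (x axis) and in Kdm5b embryos (y axis). Error bars are the standard errors of the fits, colours mark the subunit and the dotted line marks equal change. Of these genes, 70 have the same sign on both axes.

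Genes that fell had higher levels in zygotes than genes that rose, with calls and levels taken from different samples. The 40 genes that fell in Kdm5b embryos had a median of 121 TPM in control zygotes (quartiles 68.7 and 233), the 12 that rose had 46.4 TPM (14.9 and 63.2), and the 26 that did not pass had 26.9 TPM (14.5 and 38.6). With calls from controls and levels from Kdm5b zygotes, the medians were 135, 45.9 and 24.7 TPM. The difference is a description and was not compared with that over all genes. Genes with few counts are less often called in any data. Among other genes with up to 1000 bases of exon, 27.7% fell in control 2C samples and the median log2 fold change was -0.05. Among the 58 tested ribosomal protein genes of that length, 39.7% fell and the median was -0.63. From 1000 to 2000 bases the medians lay closer, at -0.36 for 15 ribosomal protein genes and -0.24 for other genes. Of these 15 genes 53.3% fell and 26.7% rose, against 33.1% and 18.2% of the other genes.

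Some ribosomal proteins have paralogues that are used in particular tissues. Rps27l was at 73.04 ± 17.48 TPM in control zygotes and 189 ± 60.9 TPM in control 2C samples (SD, n = 10 and 9), while Rps27, which has 2 named pseudogenes, was at 2.05 ± 1.75 and 4.07 ± 5.01 TPM. Rpl39l, known from testis, was at 14.1 ± 3.38 TPM in control zygotes and its X-linked relative Rpl39 at 23.0 ± 7.00 TPM. Rpl39 fell by 1.31 in Kdm5b embryos (standard error 0.44), and in controls had the same estimate with a larger standard error of 0.57 and did not pass. Rpl10l, also known from testis, was at 0 to 2.88 CPM in control zygotes and 0.682 to 14.4 CPM in control 2C samples. The groups overlapped, and the log2 fold change was 1.86 (edgeR adjusted p = 0.0111, standard error 0.60). Rps4l was at 24.6 ± 6.15 TPM in control zygotes, well below Rps4x at 209 ± 27.8 TPM, and fell by 1.43 in Kdm5b embryos.

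The bases around the annotated start of the genes that moved most are shown because a TOP tract begins where the mRNA begins. RefSeq start regions on GRCm38.p6 were found for 58 of the 79 genes. For the 4 genes that rose and the 4 that fell most in controls, among those called in both contrasts and found, the 30 bases from 15 before the start to 15 from it onwards are given on the transcript strand, 5′ to 3′, with the longest run of C and T in capitals. Where RefSeq lists several starts, the one with the longest run is shown. The start shown lies 199 bases inside the gene as the count table places it for Rps19, 214 for Rpl19 and 10 for Rps27l. That of Rpl11 lies 22 bases before the gene in the count table, so its window holds no base of the gene as counted.
Rps19, chr7:24884898-24884927, plus strand: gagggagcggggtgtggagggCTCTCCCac
Rps3, chr7:99483695-99483724, minus strand: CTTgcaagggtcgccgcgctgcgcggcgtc
Rpl18, chr7:45718056-45718085, plus strand: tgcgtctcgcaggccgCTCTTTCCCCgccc
Rps27l, chr9:66946071-66946100, plus strand: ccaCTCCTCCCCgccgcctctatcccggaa
Rpl11, chr4:136053379-136053408, minus strand: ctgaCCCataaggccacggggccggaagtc
Rpl37, chr15:5116598-5116627, plus strand: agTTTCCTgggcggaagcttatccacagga
Rpl19, chr11:98026909-98026938, plus strand: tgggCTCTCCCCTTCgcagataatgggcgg
Rpl5, chr5:107900513-107900542, plus strand: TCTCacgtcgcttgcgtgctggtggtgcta

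A run of at least 8 C and T was present in Rpl18 and Rps27l, which rose, and in Rpl19, which fell. In Rpl18 the run lies after the annotated start, and in Rps27l and Rpl19 wholly before it. Runs on either side of the start were counted, so the shares below are not of mRNAs that begin with such a run. In these 30 bases, 44.8% of the 58 genes had such a run, against 13.9% of the 27025 genes with a start region. Among genes with 1 listed start the shares were 42.9% of 49 and 11.7% of 22862. It was present in 3 of 8 genes that rose in both contrasts and in 12 of 23 that fell in both. The letters CTTTC on the transcript strand were in the window of 29.3% of the 58 genes and 4.76% of all genes, in 2 of the 8 and in 6 of the 23. In the 300 bases from 250 before to 50 after the start, CCGGAAG on either strand was in 41.4% of the 58 genes and 9.93% of all genes, in 3 of the 8 and in 9 of the 23. These matches are descriptions, a gene can have several starts, and where transcription began in these embryos was not measured.

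Other genes of the translation machinery were read from the same fits, in which 26.8% of all genes rose and 25.4% fell in controls and 29.3% and 29.5% in Kdm5b embryos. Of 8 ribosomal proteins whose names the rule misses, 1 rose and 5 fell in controls, and 1 rose and 4 fell in Kdm5b embryos. The gene that rose in controls was Rpsa, a small-subunit protein also known as the laminin receptor, at 0 to 4.38 CPM in control zygotes and 10.9 to 51.9 CPM in control 2C samples, without overlap (log2 fold change 3.62, standard error 0.44). Rpl36al fell by 1.85, from a median of 38.7 to 10.0 CPM. Of 18 other genes with TOP mRNAs, 4 rose and 8 fell in controls (median log2 fold change -0.24), and 4 rose and 11 fell in Kdm5b embryos (median -0.58). Pabpc1, the poly(A)-binding protein, rose by 2.71 (standard error 0.34) from a median of 6.46 to 31.9 CPM. Naca, which binds nascent peptides, fell by 1.35 (standard error 0.09) from a median of 406 to 152 CPM.

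Of 23 ribosome assembly factors and chaperones of ribosomal proteins, 5 rose and 15 fell in controls (median log2 fold change -0.97), and of 24 in Kdm5b embryos 4 rose and 14 fell (median -1.30). Ltv1, which accompanies the small subunit out of the nucleus, fell by 1.96 (standard error 0.16), and Riok3, a kinase bound to late small-subunit precursors, rose by 0.74 (standard error 0.09). Of 75 proteins of the separate mitochondrial ribosome, 5 rose and 43 fell in controls (median -0.99), and of 76 in Kdm5b embryos 4 rose and 46 fell (median -1.01). Mrps18a fell by 2.41 in controls, and Mrpl3 rose by 0.76. Of 11 regulators of TOP mRNAs, 5 rose and 1 fell in controls (median 0.23), and 6 rose and 1 fell in Kdm5b embryos (median 0.41). The share called, 54.5% and 63.6%, was near the 52.2% and 58.7% of all genes. Tsc1, which restrains mTORC1, rose by 0.57, and Larp4b, an RNA-binding protein of the LARP family, fell by 0.37. Differences between these lists were not tested.

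**Figure D4:**
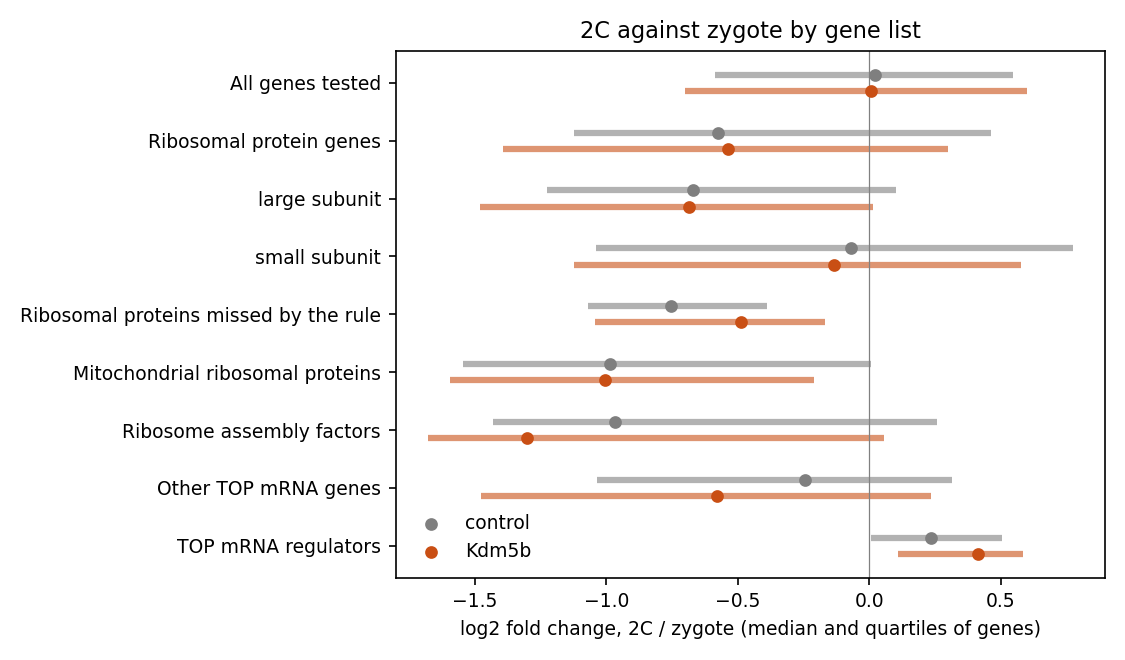
Median (points) and quartiles (bars) of the log2 fold change from zygote to 2C over the tested genes of each list, in control and in Kdm5b embryos. In controls the median is -0.57 for ribosomal protein genes, -0.99 for mitochondrial ribosomal proteins and 0.23 for regulators of TOP mRNAs.

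Whether KDM5B altered these mRNAs was examined at each stage. In zygotes 0 of 77 genes passed an adjusted p of 0.05 in edgeR, where 0.134% of the 11933 genes tested passed, and 0 passed in DESeq2. An unadjusted p under 0.05 was found for 7 genes, 4 with higher and 3 with lower estimates in Kdm5b zygotes, against 10.3% of all genes, 4.74% higher and 5.6% lower. Log2 fold changes ran from -0.55 (Rps3) to 0.41 (Rps27a), 76 of 77 were within 0.5 of 0, and their standard error had a median of 0.14. Rpl32, a protein of the large subunit, had the smallest p. It had 30.4, 40.9 and 44.1 CPM in control zygotes and 41.0, 44.8 and 48.3 CPM in Kdm5b zygotes, which overlapped (log2 fold change 0.21, edgeR adjusted p = 0.308, standard error 0.07). Other small p-values belonged, among higher estimates, to Rps7 at 0.18 and Rps27l at 0.31, and among lower ones to Rpl7a at -0.15 and Rps15a at -0.20. Both zygote groups were spread alike over strips, here sets of 8 consecutive library index numbers, with 4, 4 and 2 samples each. The strips are inferred from these numbers, and the labels do not say that samples of a strip were handled together.

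In 2C samples 0 of 78 genes passed in edgeR, where 0.0245% of the 12244 genes tested passed, and 0 passed in DESeq2. An unadjusted p under 0.05 was found for 7 genes, all with lower estimates in Kdm5b samples, against 9.41% of all genes in both directions and 4.91% lower. The standard error had a median of 0.36, larger than in zygotes, and log2 fold changes ran from -1.17 (Rpl10l) to 0.84 (Rpl39l). Rpl22, an RNA-binding protein of the large subunit, had the smallest p, and its lowest, median and highest levels were 15.5, 18.4 and 28.7 CPM in control 2C samples and 9.56, 12.9 and 14.7 CPM in Kdm5b 2C samples. The groups did not overlap, as for 0.147% of all genes tested in this direction, and the log2 fold change was -0.59 (edgeR adjusted p = 0.366, standard error 0.21). Rpl19 had an estimate of -0.62 (standard error 0.26). In the other direction the smallest p-values belonged to Rps10 at 0.36, Rpl39l at 0.84 and Rps16 at 0.21. Rpl22 was 1 of 2 genes that passed when the zygotes were fitted together with the 2C samples (adjusted p = 0.0118 in edgeR). Injection and inferred strip were unevenly crossed, with 3 control and 5 Kdm5b samples in one strip and 6 and 1 in the other. No label says that the samples of a strip were handled together. With the strip as a covariate 0 genes passed, and within the strip of 3 and 5 samples 0 genes passed. That strip holds control 2C replicates 1, 2 and 3, so 2 of its 3 controls are the samples that stood apart. The median log2 fold change of the 78 genes took either sign, at -0.05 as fitted, 0.02 with the covariate, 0.12 within that strip, -0.18 without control 2C replicates 2 and 3 and -0.15 with single intact embryos only. Over all genes it was -0.0028, 0.03, 0.04, -0.0025 and -0.0084 in the same order. Without control 2C replicates 2 and 3, 0 genes passed.

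Whether the change from zygote to 2C differed between Kdm5b and control embryos was tested over all 35 samples. In this interaction 0 of 79 genes passed in edgeR, where 0.109% of the 13778 genes tested passed, and 0 passed in DESeq2 or without control 2C replicates 2 and 3. An unadjusted p under 0.05 was found for 5 genes, all with lower estimates, against 9.1% of all genes in both directions and 5.33% lower. Rpl22 had the smallest p, with an estimate of -0.55 (edgeR adjusted p = 0.269, standard error 0.18). Rps27a followed at -1.25 (standard error 0.49) and Rpl18 at -1.03 (standard error 0.42). In the other direction the smallest p-values belonged to Rpl39l at 1.05, Rps16 at 0.28 and Rps3 at 0.63.

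**Figure D5:**
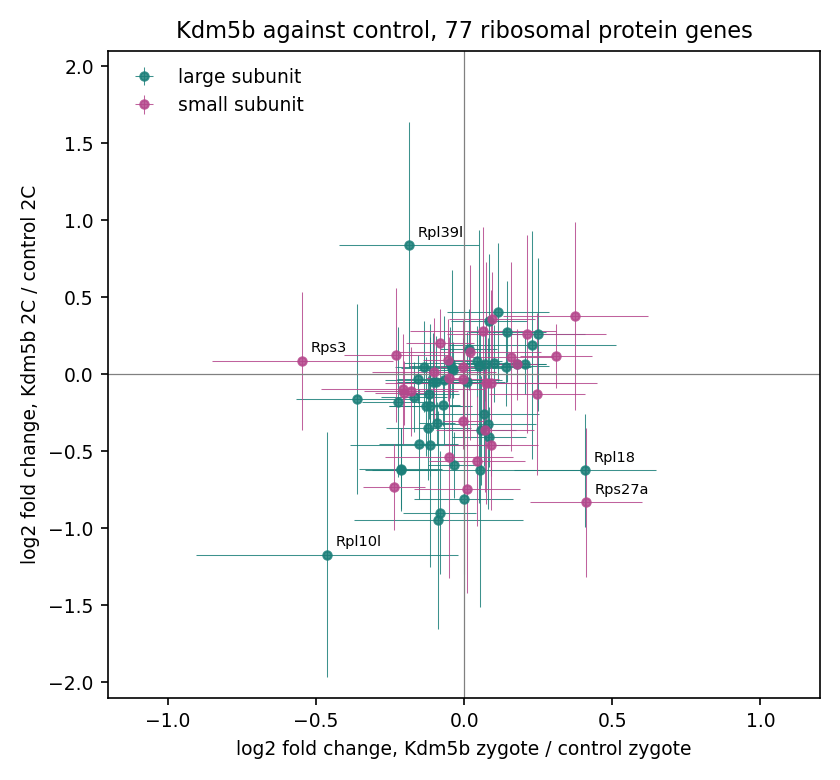
log2 fold change of Kdm5b against control samples in zygotes (x axis) and in 2C samples (y axis) for the ribosomal protein genes tested at both stages, with error bars for the standard errors of the fits and colours for the subunit. Of all estimates, 76 of 77 are within 0.5 of 0 in zygotes and 62 of 78 in 2C samples.

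Within groups, ribosomal protein genes varied more than the median gene, but the sets were not matched for counts. Genes with fewer counts vary more by sampling alone, and the part of this was not tested. Among tested genes averaging 50 counts or more in the group, the median coefficient of variation was 21.7% for ribosomal protein genes and 15.8% for all genes in control zygotes, and 19.5% and 14.7% in Kdm5b zygotes. It was 42.0% and 30.3% in control 2C samples and 32.6% and 24.7% in Kdm5b 2C samples. Mitochondrial ribosomal protein genes also lay above all genes, at 18.4, 17.6, 35.7 and 28.8% in the same order of groups, and the difference between these sets was not tested. Rpl17 varied least of the ribosomal protein genes in control zygotes (6.15%) and control 2C samples (8.73%), Rps7 in Kdm5b zygotes (4.91%) and Rps16 in Kdm5b 2C samples (5.46%). Rps19 varied most in both groups of 2C samples, at 98.5% and 89.2%. Across the 10 control zygotes the median correlation between pairs of ribosomal protein genes was 0.356, and that between pairs of mitochondrial ribosomal protein genes 0.130. In Kdm5b zygotes, control 2C and Kdm5b 2C samples the median for ribosomal protein genes was 0.197, 0.199 and 0.110. These correlations are descriptions over 10, 10, 9 and 6 samples, in which the genes share libraries and depth.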

How the data were processed

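RNA of 35 single zygotes and 2C samples was sequenced with a stranded full-length single-cell kit. The authors deposited raw counts of fragments per RefSeq gene, made with fastp 0.21.0, STAR 2.7.3a on GRCm38 and featureCounts 1.5.1 with strand used and multi-mapping fragments left out, so genes with near-identical copies may be undercounted. The exon lengths are those of the deposited table. Totals per sample were 8705584 to 17797581 counts. A second deposited table, of repeats, was not used.

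The Kdm5b row was removed. Fits used the groups compared (the interaction all 35 samples) and edgeR 4.0.16 in R 4.3.3, TMM normalisation, filterByExpr with a minimum count of 10, quasi-likelihood tests and p-values adjusted after Benjamini and Hochberg over all genes tested, with a threshold of 0.05. DESeq2 1.42.0 was an alternative. Fits other than the interaction were also run on counts simulated from their own model. That run cannot show how they treat outlying or pooled samples. CPM are counts scaled to the TMM library size, and TPM are counts per exon length. No pair of samples in a group agreed within sampling noise (lowest chi-square per degree of freedom 10.58). The members, lists and tests were chosen with earlier results of these data known. Named genes are members with fixed roles, the 5 with the largest changes per direction and stage contrast, the 3 with the smallest p per direction and injection contrast, the 5 highest and 3 lowest in TPM, those not past the filter, and 1 gene per list and direction. Some genes that the rule names are not reported here. Full sets of calls, and further values of genes so named, were given after their values were seen. Promoter sequences are from RefSeq (GRCm38.p6), for 58 genes, and shares over genes with 1 start were added after the data were seen.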

Additional observations from a re-analysis of the deposited data

Results flagged for a closer look

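Of 156 checks for a sample far from the rest of its group (38 named genes and the summed share, in 4 groups), 15 found one. Each was the highest sample of its group. Chance gives about 1 in 20 for independent, normally distributed values. The checks share samples and used untransformed levels, so that rate may not hold here. In control zygotes Rps15a was at 57.67 CPM in replicate 3, against 44.4 CPM in the next sample. In Kdm5b zygotes Rpl10l was at 2.218 CPM in replicate 5 (next 1.275), Rps27 at 0.7861 CPM in replicate 8 (next 0.3758), Rps19 at 3.252 CPM in replicate 9 (next 2.012) and Rps24 at 172.1 CPM in replicate 3 (next 143.4).

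In control 2C samples replicate 4 was apart for Rplp0 at 295.1 CPM (next 174.5) and Rpl18 at 18.58 CPM (next 10.76), and replicate 6 for Rpl3 at 30.81 CPM (next 15.56) and Rpl22 at 28.68 CPM (next 20.6). Replicate 2 was apart for Rps27a at 43.74 CPM (next 16.95) and Rps24 at 102.2 CPM (next 63.3). In Kdm5b 2C samples replicate 1 was apart for Rpl10l at 7.605 CPM (next 2.419), Rps19 at 18.59 CPM (next 6.494) and Rpl21 at 28.64 CPM (next 16.9), and replicate 6 for Rps24 at 77.28 CPM (next 49.49).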

How the results depend on the processing

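Over the alternatives run, the number of ribosomal protein genes called between the stages was 34 to 54 in controls and 41 to 57 in Kdm5b embryos. With an absolute log2 fold change over 1, 21 fell in controls. With all 35 samples in one fit, 2 genes passed between Kdm5b and control 2C samples, both lower. As a share of TPM, the 79 genes held 0.8176% in control zygotes, 0.7953% in Kdm5b zygotes, 0.54% in control 2C and 0.4787% in Kdm5b 2C samples, a different unit. No gene named by the rule changed direction, but the median of the 78 genes between Kdm5b and control 2C samples, -0.05, was 0.02 when the fit adjusted for index strip and 0.12 within the strip in which 2 of 3 controls are replicates 2 and 3. It was -0.18 without those replicates and -0.15 with single intact 2C embryos only. Leaving out 1 sample at a time gave 46 to 51 calls in controls (14 to 16 higher, 32 to 36 lower) and 48 to 53 in Kdm5b embryos (10 to 14 higher, 37 to 41 lower), and 0 for both injection comparisons and the interaction. Summed shares were then 0.2277 to 0.2372%, 0.2201 to 0.2272%, 0.1377 to 0.1491% and 0.1185 to 0.1291% in control zygotes, Kdm5b zygotes, control 2C and Kdm5b 2C samples. The DESeq2 Wald test gave 16 higher and 33 lower genes in controls and 14 and 40 in Kdm5b embryos, while the median of all genes moved to 0.149 and 0.1538 and that of the ribosomal protein genes from -0.57 to -0.32 and from -0.54 to -0.47. The control median was -0.35 with single intact 2C embryos only and -0.39 with all 35 samples in one fit. With the replicate number as a replicate block, 12 rose and 35 fell in controls, 10 rose and 37 fell in Kdm5b embryos, and 0 passed in the injection comparisons and the interaction. The numbers did not pair the samples, as the correlation of same-numbered samples was at most 0.106. In Kdm5b embryos Rpl18 lost its call in 8 of 16 fits without 1 sample (adjusted p in edgeR 0.05376 to 0.1179) and Rps10 in 6 (0.05079 to 0.08309). Rpl18 also lost it without a low-count filter (log2 fold change 0.63, adjusted p = 0.1142), with the replicate block (0.73, 0.1099) and in one fit of all samples (0.70, 0.05523). Rps10 lost it with DESeq2 size factors (-0.40, 0.05949), the replicate block (-0.39, 0.1619) and one fit (-0.47, 0.07775). In controls Rpl10l lost its call with the replicate block (log2 fold change 1.56, adjusted p = 0.1043) and Rpl23 with single intact 2C embryos only (-0.51, 0.1608), and the cause was not tested for any of these. Rps27 and Rpl9 had few counts, and the cause was not tested. The 2C comparison of injections had a median standard error of 0.36.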
